A study of Mus musculus with 6 samples.

Results

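The complement group examined here comprised 9 genes, chosen by name from the 35688 gene rows of the table: C3, C4b, Cfb, C1s1 and C1ra, which encode complement components, and Cfi, Serping1, Cd55 and Cd59a, which encode regulators. Each of the 9 symbols had a single row. RNA came from the mouse line m1102, derived from the ovarian surface epithelium, the layer that covers the ovary and is torn and repaired at ovulation. All cells were grown with 4% serum and EGF. The 2 groups were 3 libraries of untreated cells and 3 libraries of cells given 10 ng/mL TGFB1 for 4 days, all of them of this single line. The labels do not name the mouse strain or age behind the line. The values are on the TPM scale as deposited, a relative transcript abundance corrected for transcript length, so levels of different genes can be set side by side. Read depth is unknown. The labels give separate samples without saying that these were separate cultures, so the p-values measure a spread that may be technical.

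Complement is a chain of plasma and tissue proteases that tags surfaces for uptake and lysis. The classical pathway starts when C1q engages the proteases C1r and C1s, which cleave C4 and C2; the lectin pathway uses MASP proteases in their place, and the alternative pathway uses factor B. All of these routes meet at C3, whose cleavage product binds covalently to nearby surfaces. Host cells are protected by C1 inhibitor (Serping1), factor I (Cfi), and the membrane proteins CD55, which dissociates C3 convertases, and CD59, which blocks the membrane attack complex. Epithelia and mesothelium make several of these proteins locally, and the liver makes most of the plasma pool.

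After TGFB1, C3, C1ra and Cd55 fell, and no member rose. C3 was 6.90-fold lower (51.0 against 7.38 TPM), C1ra 2.58-fold lower (136 against 52.8 TPM) and Cd55 1.93-fold lower (140.0 against 72.5 TPM). TGFB1 replicate 1 had the lowest treated value of each of the 6 members above 1 TPM, and without it the same 3 genes, C3, C1ra and Cd55, were called lower. C1s1, Cfb and Cd59a had group means of 7.47 TPM or more and did not pass the test, and C4b, Cfi and Serping1 were under 1 TPM. The test was limma on log2(TPM + 1) over the 12257 genes whose mean reached 1 TPM, and a gene was called at a Benjamini-Hochberg adjusted p under 0.05. Of the 6 members that met this minimum, 3 were called lower and 0 higher, where 14.6% of all tested genes were called lower and 15.8% higher. At an unadjusted limma p under 0.05, 4 of the 6 were lower and 0 higher. The share of all tested genes at that threshold was not computed, so this count has no background to be read against. In 4 of the 6 every treated value lay below every untreated one, a separation shown downwards by 23.6% and upwards by 26.3% of all tested genes. Their median log2 fold change was -0.71, against 0.015 for all tested genes.

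**Figure D1:**
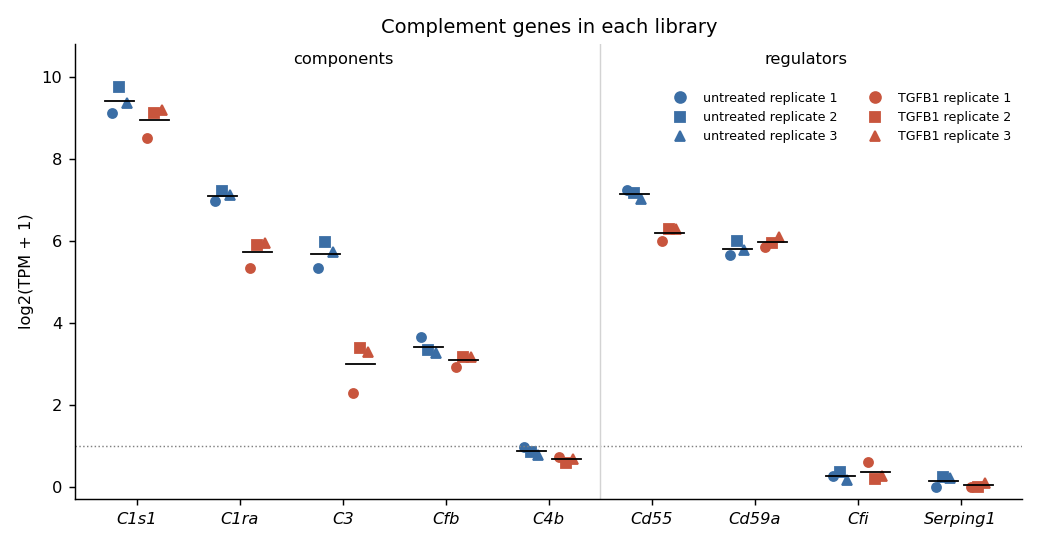
Abundance of the 9 complement genes, as log2(TPM + 1) on the y axis, in each library; symbols mark replicates, colours mark groups, black lines are group means of the log values and the dotted line is 1 TPM. The C3, C1ra and Cd55 points of the treated libraries all lie below the untreated ones, while those of C1s1 and Cd59a overlap.

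The sequences just upstream of C3, Cd55 and Cd59a are shown because the first 2 genes fell and Cd59a, a membrane regulator like Cd55, was not called. Each run is the 250 bases before the transcription start, 5′ to 3′ on the gene's strand, from RefSeq on GRCm38.p6, and capitals mark matches to motifs of factors known to act on inflammatory or TGFB1-responsive genes.
C3, chr17:57228137-57228386, minus strand: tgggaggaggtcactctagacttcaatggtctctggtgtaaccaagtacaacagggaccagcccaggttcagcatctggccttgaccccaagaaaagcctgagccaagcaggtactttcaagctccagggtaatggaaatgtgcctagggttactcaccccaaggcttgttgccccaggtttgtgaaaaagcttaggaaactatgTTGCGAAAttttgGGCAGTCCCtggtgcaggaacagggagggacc
Cd55, chr1:130462745-130462994, minus strand: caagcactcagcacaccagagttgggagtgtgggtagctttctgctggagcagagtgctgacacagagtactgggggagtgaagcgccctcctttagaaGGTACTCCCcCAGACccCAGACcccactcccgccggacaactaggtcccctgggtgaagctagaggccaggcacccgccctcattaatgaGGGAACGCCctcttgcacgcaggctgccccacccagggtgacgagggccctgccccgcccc
Cd59a, chr2:104095551-104095800, plus strand: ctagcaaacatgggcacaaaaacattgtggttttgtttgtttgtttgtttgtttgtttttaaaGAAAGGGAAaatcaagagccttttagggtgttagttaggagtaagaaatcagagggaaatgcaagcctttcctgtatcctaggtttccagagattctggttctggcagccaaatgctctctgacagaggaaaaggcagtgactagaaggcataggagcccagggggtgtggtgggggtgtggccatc
The motifs searched on both strands were TTGCNNAA (C/EBP), GGGANNNCC (NF-kB), TTCNNNGAA (STAT), TGANTCA (AP-1), GAAANNGAA (IRF), and CAGAC and GTCTAGAC (SMAD). The C3 window held a C/EBP match that starts 45 bases before the transcription start, and an NF-kB match that starts 32 bases before it. The 2 matches do not overlap. Of 32536 distinct RefSeq windows of this length, 9.57% held the C/EBP letters and 15.9% the NF-kB letters. The Cd55 window held NF-kB matches starting 151 and 61 bases before the start and CAGAC at 141 and 134 bases before it, a short motif found in 42.2% of windows. The Cd59a window held an IRF match starting 187 bases before the start, found in 7.15% of windows. The STAT, AP-1 and GTCTAGAC letters, present in 7.04%, 6.73% and 0.169% of windows, were not in these 3 windows. Windows of C1ra and C1s1 and of their near copies C1rb and C1s2 were searched in the same way and are not shown. Among those called lower, C1ra held only CAGAC, on the other strand, and C1rb held C/EBP and STAT matches. Among those not called, a C1s1 window held a C/EBP match, and C1s2 held an NF-kB match and CAGAC on the other strand. Whether matches went with the response to TGFB1 was not tested. All of these are matches of letters and not measured binding.

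C3, the central component, lies on chromosome 17 at 57203970 to 57228136 on the minus strand (GRCm38, GENCODE M21), and 0% of its transcripts' 31-base words occur in another annotated gene. Its abundance was 39.7, 61.5 and 51.7 TPM in untreated replicates 1 to 3 and 3.86, 9.51 and 8.79 TPM in TGFB1 replicates 1 to 3. Every treated library was below every untreated one. The log2 fold change was -2.69 (SE 0.309, 95% interval -3.42 to -1.95, limma adjusted p = 0.0018), the 11th lowest of the 12257. TGFB1 replicate 1 had the lowest value, 7.57% of the untreated mean, against 18.7% and 17.2% in replicates 2 and 3. Without that library the log2 fold change was -2.33 (limma adjusted p = 0.000248).

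The genes of the C1 proteases, C1s1 and C1ra, were among the 3 most abundant members in untreated cells, and C1ra was called lower while C1s1 was not. C1ra encodes C1r, which cleaves itself and then activates C1s. It was at 125, 147 and 137 TPM without TGFB1 and at 39.3, 58.5 and 60.8 TPM with it. The groups were apart, with TGFB1 replicate 1 lowest again, and the log2 fold change was -1.37 (SE 0.167, 95% interval -1.77 to -0.98, limma adjusted p = 0.00215).

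C1s1 encodes C1s, the protease that cleaves C4 and C2, and had the highest level of the 9 genes in every library. It was at 553.26, 862 and 656 TPM without TGFB1 and at 362, 553.28 and 582 TPM with it. The groups overlapped, because untreated replicate 1 lay just below TGFB1 replicates 2 and 3. The log2 fold change of -0.47 did not pass (SE 0.222, 95% interval -1.001 to 0.053, limma adjusted p = 0.151), and this interval runs from a 2-fold fall to almost no change. It was -0.26 without TGFB1 replicate 1 and -0.62 without untreated replicate 1, so its size varied with the library left out. In both groups C1s1 was lowest in replicate 1, and with a replicate block it was called lower (limma adjusted p = 0.0281).

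Within each library, C1s1 stood at 4.42, 5.84 and 4.79 times C1ra without TGFB1 and at 9.22, 9.46 and 9.56 times C1ra with it. The mean ratio went from 5.02 ± 0.738 to 9.42 ± 0.177 (SD, n = 3 per group), and the groups did not overlap. An exact two-sided permutation test over the libraries gave p = 0.1, the smallest that 3 against 3 allows; this and the ratios below were chosen after the values were seen, and p is not adjusted over the 5 ratios computed.

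C1ra and C1s1 are part of a tandem cluster on chromosome 6, with C1ra at 124512405 to 124523443 (plus strand), C1s1 at 124530345 to 124542359 (minus), C1rb at 124570294 to 124581171 (plus) and C1s2 at 124624625 to 124636085 (minus). The near copies limit how reads can be assigned. Of the 31-base words of C1ra, 56.9% also occur in C1rb, and 33.5% of those of C1s1 occur in C1s2. In the other direction, 70.0% of the words of C1rb occur in C1ra and 40.4% of those of C1s2 in C1s1. Over all other annotated genes, the shared words are 59.6% of those of C1ra and 47.6% of those of C1s1. The level of each is thus uncertain. How far reads of C1ra and C1s1 enter the values of C1rb and C1s2 was not tested. C1rb fell with C1ra, from 7.94 ± 1.51 to 2.67 ± 0.438 TPM (log2 fold change -1.28, limma adjusted p = 0.00253). The C1rb log2 fold change moved between -0.75 and -1.53 with the pseudocount. C1s2 was at 31.8 ± 6.86 and 22.7 ± 5.01 TPM and, like C1s1, did not pass (-0.47, limma adjusted p = 0.124). The C1s2 to C1rb ratio went from 4.02 ± 0.608 to 8.44 ± 0.625 (exact permutation p = 0.1, n = 3 per group). With each gene summed with its copy, the log2 fold change was -1.38 for C1ra and -0.47 for C1s1. Words shared with further genes are not covered by these sums. C1rl, a C1r-like gene that begins the cluster at 124493113 to 124510643 and was looked up for its position, fell from 17.1 ± 1.31 to 8.91 ± 2.47 TPM (-0.90, limma adjusted p = 0.0145). C1qa, C1qb and C1qc, the chains of the recognition protein C1q, are listed at 0 in all 6 libraries.

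**Figure D2:**
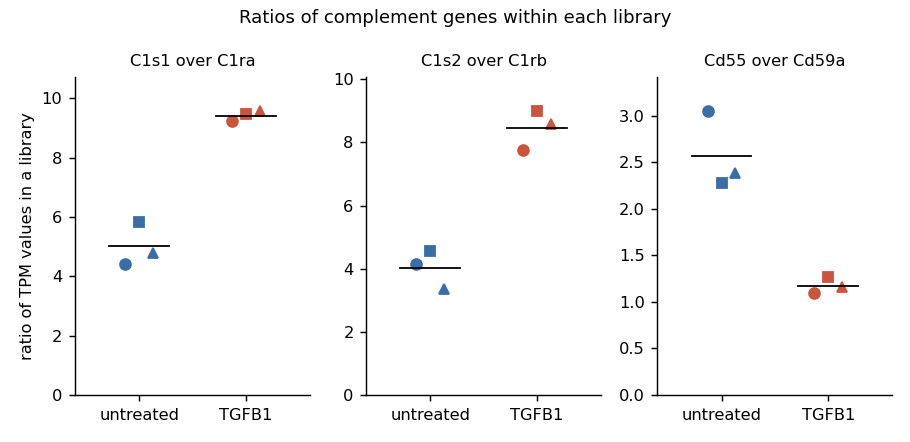
Ratio of the TPM values of 2 genes within each library (y axis, from 0), in untreated and TGFB1 libraries; symbols mark replicates as circle, square and triangle for 1 to 3, and black lines are group means. The C1s1 to C1ra ratios of the treated libraries lie between 9.22 and 9.56, above the untreated 4.42 to 5.84, and the Cd55 to Cd59a ratios lie below the untreated ones.

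C4b and C2, the genes for the targets of C1s, stood at very different levels. C4b, the complement C4 gene, was at 0.943, 0.806 and 0.697 TPM without TGFB1 and at 0.642, 0.501 and 0.609 TPM with it. The groups were apart but below the 1 TPM minimum, and with no minimum the gene was not called (limma adjusted p = 0.198). Its neighbour copy C4a, which holds 48.3% of the 31-base words of C4b, has no row here. C2, which forms the classical convertase with C4, was at 220, 258 and 230.1 TPM without TGFB1 and at 113, 156 and 154 TPM with it, and fell (log2 fold change -0.75, SE 0.135, limma adjusted p = 0.00822).

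Cfb, factor B of the alternative pathway, was at 11.6, 9.01 and 8.53 TPM without TGFB1 and at 6.54, 7.88 and 7.99 TPM with it. All 3 treated values lay below the untreated ones, yet the log2 fold change of -0.33 was not called (SE 0.133, 95% interval -0.65 to -0.015, limma adjusted p = 0.104). Cfb (chromosome 17, 34856374 to 34862518, minus strand) overlaps Gm20547 (34856412 to 34882042, minus strand), an annotated gene that covers all but one end of Cfb and part of C2 and holds 75.5% of the 31-base words of Cfb. Gm20547 was at 1.70, 0.459 and 1.41 TPM without TGFB1 and at 0.183, 0.363 and 0.134 TPM with it. With Gm20547 added, the log2 fold change of Cfb was -0.44 (limma adjusted p = 0.0551). C2 shares 40.2% of its words with the same gene, so its value is uncertain too. The C2 to Cfb ratio within libraries was 24.9 ± 5.14 without TGFB1 and 18.8 ± 1.35 with it, and the groups overlapped (exact two-sided permutation p = 0.3, n = 3 per group).

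Of the regulators, Cd55 fell and Cd59a was not called. Cd55 lies on chromosome 1 at 130439027 to 130462744 (minus strand). It was at 149.7, 142 and 129 TPM without TGFB1 and at 62.5, 77.4 and 77.5 TPM with it, with no overlap between the groups. The log2 fold change was -0.94 (SE 0.103, 95% interval -1.19 to -0.70, limma adjusted p = 0.00152). Its near copy Cd55b, with which it shares 11.2% of its words, was at or below 1.08 TPM in every library.

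Cd59a, on chromosome 2 at 104095801 to 104115354 (plus strand), was at 49.0, 62.2 and 54.0 TPM without TGFB1 and at 56.8, 61.1 and 67.0 TPM with it. The groups overlapped, and the 95% interval of the log2 fold change of 0.16 ran from -0.084 to 0.41 (limma adjusted p = 0.277), which leaves out a fall of the size seen for Cd55. Within libraries Cd55 went from 3.05, 2.27 and 2.38 times Cd59a to 1.10, 1.27 and 1.16 times (exact two-sided permutation p = 0.1, the smallest possible, n = 3 per group). Cr1l, the rodent membrane regulator also called Crry, was at 68.2 ± 1.49 and 67.2 ± 4.26 TPM (log2 fold change -0.024, 95% interval -0.18 to 0.13, limma adjusted p = 0.81). The Cd55 to Cr1l ratio went from 2.05 ± 0.198 to 1.09 ± 0.191 (exact two-sided permutation p = 0.1, n = 3 per group).

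The remaining regulators were near the bottom of the table. Cfi, the protease that inactivates C3b and C4b, was at 0.198, 0.284 and 0.121 TPM without TGFB1 and at 0.521, 0.131 and 0.200 TPM with it. Serping1, C1 inhibitor, was listed at 0 in untreated replicate 1 and in TGFB1 replicates 1 and 2, and at 0.177, 0.156 and 0.0660 TPM in the other libraries. Both sets of values overlapped between groups. None of the 31-base words of Cfi or Serping1 is shared with another gene (0%). In untreated cells the order of the group means was C1s1, Cd55, C1ra, Cd59a, C3, Cfb, C4b, Cfi and Serping1. Among neighbours in that order, Cd55 and C1ra, Cd59a and C3, and Cfi and Serping1 had overlapping values. In treated cells the order was C1s1, Cd55, Cd59a, C1ra, Cfb, C3, C4b, Cfi and Serping1, with overlapping values for Cd55 and Cd59a, Cd59a and C1ra, Cfb and C3, and C4b and Cfi.

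**Figure D3:**
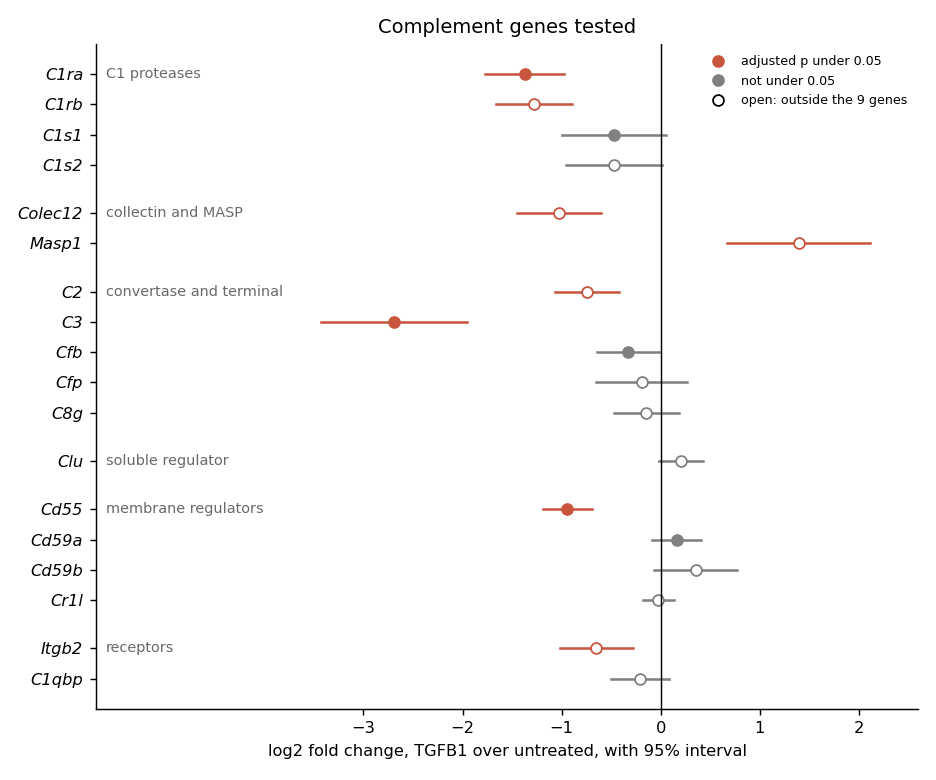
Log2 fold change of each tested complement gene (TGFB1 over untreated, x axis) with its unadjusted 95% limma interval; filled points are among the 9 genes, open points are not, and red marks an adjusted p under 0.05. C3 (-2.69) lies farthest to the left, and Masp1 (1.39) is the red point to the right of 0.

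Beyond the 9 genes, 51 other complement genes were listed, of which 50 had a row, 14 were at 0 in all 6 libraries and 12 met the 1 TPM minimum. Of these 12, 4 were called lower and 1 higher, beside the 14.6% and 15.8% of all tested genes, and their median log2 fold change was -0.20. Itgb2, called lower, and Masp1, called higher, met the minimum only through the group in which each was high. Among the 9 with a mean of 1 TPM or more in both groups, 3 were called lower and 0 higher, where 14.7% and 15.4% of the 11853 such genes were. Besides C1rb and C2, the lower ones were Colec12 and Itgb2.

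Colec12, a membrane collectin that binds sugars, fell from 77.0 ± 7.01 to 38.0 ± 9.07 TPM (log2 fold change -1.03, limma adjusted p = 0.00709). Itgb2, the beta chain of the complement receptor integrins, was at 1.53 ± 0.196 and 0.609 ± 0.127 TPM (-0.65, limma adjusted p = 0.0214). That call was lost without untreated replicate 2 or 3 or TGFB1 replicate 3 (limma adjusted p up to 0.0837). The Itgb2 log2 fold change moved between -0.22 and -1.21 with the pseudocount. Masp1, a lectin pathway protease, rose from 0.138, 0.320 and 0.169 TPM to 4.09, 1.68 and 1.34 TPM. Its log2 fold change of 1.39 (limma adjusted p = 0.0159) moved between 0.48 and 2.88 with the pseudocount. The Masp1 call was lost without untreated replicate 1 or 3 (limma adjusted p up to 0.0568).

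The other tested genes did not pass. Clu, a soluble inhibitor of the terminal complex, was at 482 ± 57.3 and 552 ± 24.8 TPM (log2 fold change 0.20, limma adjusted p = 0.143). Cfp, properdin, was at 3.66 and 3.11 TPM, C8g at 4.61 and 4.06 TPM, Cd59b at 0.855 and 1.37 TPM, and C1qbp, a mainly mitochondrial protein that can bind C1q, at 227 and 198 TPM. C1qbp was called lower without TGFB1 replicate 1 (-0.34, limma adjusted p = 0.0175). Of the terminal pathway genes, Hc (C5), C6, C7, C8a, C8b and C9 were at or below 0.23 TPM in every library. Cd93, a surface glycoprotein first described as a C1q receptor, was under the minimum at 0.0784, 0.143 and 0.215 TPM without TGFB1 and 1.71, 1.24 and 1.42 TPM with it. With no minimum it was called higher (log2 fold change 1.10, limma adjusted p = 0.00382).

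Complement genes such as C3 and Cfb belong to the acute-phase response, which IL-6 family cytokines drive through STAT3 and C/EBP factors. Of 21 acute-phase and IL-6 family genes listed, 14 were tested. Of these, 9 were called lower and 0 higher, beside 14.6% lower and 15.8% higher among all tested genes. At an unadjusted limma p under 0.05, 10 were lower and 1 higher. No share of all genes was computed at that threshold, so this count too has no background to be read against. The median log2 fold change of the 14 was -0.75. The secreted acute-phase genes Hp (haptoglobin, 10.2 ± 1.71 to 1.59 ± 0.917 TPM), Saa3 (13.5 ± 2.46 to 3.14 ± 2.39 TPM) and Cp (ceruloplasmin, 6.17 ± 1.52 to 3.02 ± 0.915 TPM) fell. So did the receptor genes Il6ra (log2 fold change -1.22) and Osmr (-0.65), the cytokine Lif (-1.01), the feedback inhibitor Socs3 (-1.48), and the transcription factors Stat3 (-0.61) and Cebpb (-0.90). The calls of Saa3, Cp, Osmr, Stat3 and Cebpb were each lost with at least 2 of the untreated libraries left out singly and with no minimum on abundance (limma adjusted p up to 0.103). With a pseudocount of 5, the values of Hp (-1.21), Saa3 (-1.22), Cp (-0.48) and Il6ra (-0.74) each moved by over 1.5 times. With a pseudocount of 0.1, Hp was at -2.79. Il6 itself was at 0, 0 and 0.144 TPM without TGFB1 and at 13.1, 1.68 and 1.14 TPM with it, and was not called (limma adjusted p = 0.0587).

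**Figure D4:**
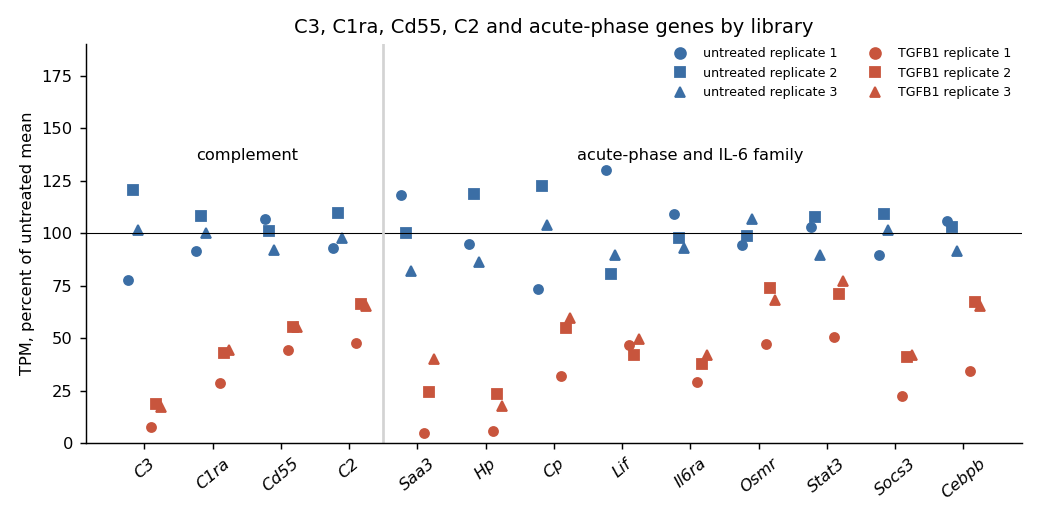
TPM of C3, C1ra, Cd55 and C2 and of the 9 acute-phase and IL-6 family genes called lower, in each library, as a percentage of the untreated mean (y axis, linear from 0); symbols mark replicates and colours mark groups. TGFB1 replicate 1 is the lowest treated library for each gene drawn except Lif, down to 5.03% for Saa3; Masp1, which rose, is not drawn.

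Across the 6 libraries, the 5 genes with the highest Pearson correlation with C3, among 8709 other genes averaging 10 TPM or more, were Tpt1-ps3, Cyp2f2, Tmem192, Acot2 and C1ra (r = 0.9988 to 0.998). Tpt1-ps3, a pseudogene by its name, had a log2 fold change of only -0.54, and its words shared with other genes were not computed. These coefficients describe 6 points that share the 2 groups and the place of TGFB1 replicate 1, and 103 genes had r above 0.99. Among the other complement genes at this abundance, r with C3 was 0.990 for C2, 0.986 for Colec12, 0.974 for Cd55, 0.848 for C1s2 and 0.820 for C1s1. It was 0.311 for C1qbp, 0.010 for Cr1l, -0.36 for Cd59a and -0.635 for Clu.

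Markers of other cells and of the labelled cell type were read in the same libraries. In bulk RNA, fewer cells of a type and less RNA per cell cannot be told apart. The leukocyte genes Ptprc and Tyrobp were at most 0.0843 TPM, and the 10 leukocyte markers summed to 20.1 to 28.6 TPM without TGFB1 and 13.9 to 14.3 TPM with it, mostly Cd68, which fell (log2 fold change -1.27). Aif1, of the same list, rose to 3.95 ± 0.509 TPM (log2 fold change 1.10, limma adjusted p = 0.02). Of 12 markers of ovarian surface epithelium 9 were tested and 5 were called lower and 0 higher, among them Upk3b and Krt7, beside the same 14.6% and 15.8% of all tested genes, and all 12 summed to between 2247 and 2391 TPM without TGFB1 and between 1155 and 1544 TPM with it. Krt8 was at or below 0.414 TPM and Aldh1a2 was near 0 in all libraries, while Wt1, Msln and Lrrn4 were at 103 TPM or more in each. Star, a gene of steroid-making cells, fell from 299.6 ± 23.9 to 143 ± 55.7 TPM (limma adjusted p = 0.0279). Of the same list, Cyp17a1 and Lhcgr were at most 0.146 TPM and Cyp11a1 at most 0.853 TPM. Of the granulosa markers, Foxl2 was called higher (18.5 and 22.7 TPM, limma adjusted p = 0.0265). Inha was called lower (16.9 and 9.83 TPM, limma adjusted p = 0.0152), and Fshr was at 0 throughout. The endothelial marker Pecam1 was at 0.989 and 1.43 TPM and was not called. The part of these markers in the complement values was not tested.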

How the data were processed

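Poly(A) RNA of the 6 libraries was prepared with a strand-marking kit, per the labels' protocols. Per the submitters' processing notes, kallisto 0.44.0, sleuth 0.30.0 and the build GRCm38 were used, with no roles stated. The sources used here do not say how strand, annotation and gene sums were handled. The authors deposited a TPM-scale signal for 35688 genes. Column totals ran from 983434 to 1026702 and no read counts were used, so precision from depth is unknown.

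Groups and replicates came from the sample titles. The 12257 genes whose mean reached 1 TPM were fitted as log2(TPM + 1) with limma 3.58.1 in R 4.3.3 (eBayes with trend, two-sided, Benjamini-Hochberg over all tested genes, called under 0.05). Fold changes on this scale understate those of low genes. Shares of 31-base words came from GENCODE M21 transcripts with Python 3.11.15. Motifs were sought in the 250 bases before RefSeq starts; of the 9 members, C3, C1s1, C1ra, Cd55 and Cd59a matched an entry. The fit was tested on simulated data. The members, lists and tests were chosen with earlier results of these data known. Named genes were all 9 members, every tested gene of the other complement list, every called acute-phase gene, and the 5 most like C3, except that 1 listed gene is not reported here; Cd93, C1rl, Il6, Gm20547 and the cell markers were added after their values were seen.

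The labels give both groups replicate numbers 1 to 3. Deviations of same-numbered libraries correlated at 0.198, 0.153 and -0.038. No reference value was computed for these correlations, so they do not settle whether equal numbers mark pairs. The main fit did not take the numbers as pairs.

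The alternatives were other pseudocounts, minimums and scalings, a replicate block, leaving out each library, and, added after seeing the data, sums over near copies.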

Additional observations from a re-analysis of the deposited data

How the results depend on the processing

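Across 15 alternatives the 6 tested members gave 90 values, all in the main direction, and 89 kept their side of the threshold. The exception was C1s1 with a replicate block (log2 fold change -0.47, limma adjusted p = 0.0281), which made 4 members lower; the block also made its copy C1s2 pass (-0.47, limma adjusted p = 0.0267) and changed no other call among the complement and acute-phase genes refitted; with the block 1906 genes were higher and 1924 lower. Each of the other alternatives gave 3 members lower and 0 higher. The lower calls of C3, C1ra and Cd55 held in every fit run, with limma adjusted p up to 0.012, 0.0138 and 0.0102. With single libraries left out, genes called higher ran from 1113 to 2024 and lower from 917 to 1926, members lower stayed at 3, and other complement genes ran from 0 to 1 higher and from 3 to 5 lower. Other complement genes called higher numbered 2 with no minimum, which adds genes, and 0 with a minimum of 5 TPM, which removes Masp1. The sign of Cr1l turned after rescaling without mitochondrial and abundant genes (0.026), and with single libraries left out it ran from -0.074 to 0.0098; the cause was not tested. That rescaling made 62.7% of calls higher against 52.0% as deposited. Depth could not be assessed for the genes under 1 TPM.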
